A study of Mus musculus with 9 samples.

Results

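The receptors for interferon and the Janus kinases (JAKs) that work with them are encoded by 8 genes of the mouse, chosen here by name: the type I receptor chains Ifnar1 and Ifnar2, the type II receptor chains Ifngr1 and Ifngr2, and the kinases Jak1, Jak2, Jak3 and Tyk2. They are 8 of the 50686 genes that were counted, and all 8 passed the filter on low counts that left 13852 genes for testing. Libraries for RNA-seq came from BCR/ABLp185+ cell lines, bone marrow cells of the C57BL/6N background that had been transformed with the BCR/ABL oncogene and were grown in culture. The lines were wild type (wt), Stat5a-/- or Stat5b-/-, all carried BCR/ABLp185, and none was described as treated. There was 1 line of each genotype with 3 technical replicates, 9 libraries in all, so every test below compares 3 cell lines and measures only the spread between libraries of a line. The description attached to the knockout samples reads wt and conflicts with their titles and genotype labels, which were used.

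Type I interferons bind a receptor made of IFNAR1 and IFNAR2, and interferon gamma, the type II interferon, binds a receptor made of IFNGR1 and IFNGR2. The chains have no kinase activity of their own. TYK2 is bound to IFNAR1, JAK1 to IFNAR2 and IFNGR1, and JAK2 to IFNGR2, and the kinases phosphorylate STAT proteins, which enter the nucleus. In the type I response STAT2 acts there together with IRF9. JAK3 takes no part in interferon receptor signalling but pairs with JAK1 on cytokine receptors that contain the common gamma chain. The study asked how loss of STAT5A and loss of STAT5B differ in BCR/ABL+ cells.

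Ifnar2, Ifnar1 and Ifngr2 lie in this order on the plus strand of chromosome 16, at chr16:91372783-91405589, chr16:91485238-91507441 and chr16:91547072-91565169 of GRCm38, in a stretch of 192 kb. Ifngr1 is at chr10:19591949-19610229 on the plus strand. Jak1 is at chr4:101152367-101265282 on the minus strand, Jak2 at chr19:29251828-29313080 on the plus strand, Jak3 at chr8:71676296-71690575 on the plus strand and Tyk2 at chr9:21104068-21131243 on the minus strand. The promoters of the receptor chains are shown because these genes moved in different directions within 1 pathway. Each is the RefSeq sequence of GRCm38.p6 from 250 bases before to 50 bases after the start site, 5′ to 3′, and capitals mark a match to the letters TTCNNNGAA, the core of the GAS element that STAT dimers bind. Ifnar2 is chr16:91372533-91372832, Ifnar1 chr16:91484965-91485264, Ifngr2 chr16:91546809-91547108 and Ifngr1 chr10:19591699-19591998, all on the plus strand.
Ifnar2: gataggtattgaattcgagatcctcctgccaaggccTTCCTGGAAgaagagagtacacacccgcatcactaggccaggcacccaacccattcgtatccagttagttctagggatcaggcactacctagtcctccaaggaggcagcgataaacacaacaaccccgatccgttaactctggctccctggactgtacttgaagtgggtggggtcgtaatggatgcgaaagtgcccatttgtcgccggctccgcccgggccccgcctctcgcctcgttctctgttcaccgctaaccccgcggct
Ifnar1: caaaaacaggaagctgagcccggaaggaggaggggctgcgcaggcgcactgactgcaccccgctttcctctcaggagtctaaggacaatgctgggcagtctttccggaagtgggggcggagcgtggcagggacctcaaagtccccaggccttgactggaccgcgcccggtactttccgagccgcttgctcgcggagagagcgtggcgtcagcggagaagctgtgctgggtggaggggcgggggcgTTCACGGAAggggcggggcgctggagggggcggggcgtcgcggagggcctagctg
Ifngr2: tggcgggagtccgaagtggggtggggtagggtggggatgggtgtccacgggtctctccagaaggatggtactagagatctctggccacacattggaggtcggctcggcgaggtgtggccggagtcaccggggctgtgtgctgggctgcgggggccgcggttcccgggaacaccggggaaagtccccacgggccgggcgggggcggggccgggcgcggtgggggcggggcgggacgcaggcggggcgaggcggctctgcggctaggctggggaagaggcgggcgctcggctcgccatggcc
Ifngr1: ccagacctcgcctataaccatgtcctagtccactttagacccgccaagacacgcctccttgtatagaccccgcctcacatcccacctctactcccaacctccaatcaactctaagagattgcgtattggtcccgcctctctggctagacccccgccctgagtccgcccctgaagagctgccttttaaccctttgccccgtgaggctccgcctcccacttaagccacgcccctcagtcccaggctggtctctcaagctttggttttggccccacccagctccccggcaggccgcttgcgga
The GAS letters, which read the same on both strands, were found in 2 of the 8 promoters, at -214 in Ifnar2 (TTCCTGGAA) and at -5 in Ifnar1 (TTCACGGAA), where the position is that of the first base of the match from the start site. Of 32851 RefSeq promoters of the same length, 8.30% hold the letters. The core of the ISRE element, a pair of GAAA blocks with 2 bases between them on either strand, was found in 0 of the 8 and in 3.44% of all promoters. A match shows letters only, and no binding was measured here.

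Library totals lay between 11948136 and 19016396 counted reads. Of the genes targeted in the knockouts, Stat5a had 43.1 ± 6.35 normalized CPM (read counts scaled by TMM, mean ± SD, n = 3 libraries) in wt, 12.4 ± 1.02 in Stat5a-/- and 83.7 ± 10.2 in Stat5b-/-, and Stat5b had 106 ± 1.96, 142 ± 15.9 and 63.4 ± 7.72. Each was lowest in the line named for it, and neither was absent. The B-cell genes Cd79a, Pax5 and Ebf1 were read in every library, and the summed level of 12 B-lineage markers ran from 4963 to 5300 normalized CPM in wt, from 6826 to 7547 in Stat5a-/- and from 5847 to 6694 in Stat5b-/-. Of these markers Rag1 and Rag2, the recombinase genes, had 1002 to 1328 and 477 to 744 reads in a wt library, at most 3 in a Stat5a-/- library and at most 16 in a Stat5b-/- library. The sum of 16 T-cell markers ran from 708 to 1015 normalized CPM in wt, from 1039 to 1243 in Stat5a-/- and from 1537 to 2320 in Stat5b-/-, with none of the 16 at 0, and of the 16 genes 15 were called higher in Stat5b-/- than in wt, against 24.2% of all genes tested, and 6 in Stat5a-/-, against 19.8%. The sum of 7 NK-cell markers ran from 75.3 to 109, from 97.6 to 121 and from 134 to 212, with Nkg7 the most abundant; of the 6 tested, 5 were higher in Stat5b-/- than in wt, whereas Klrb1c was lower, at 9.93 to 10.6 normalized CPM in wt, 3.88 to 5.10 in Stat5a-/- and 1.51 to 1.71 in Stat5b-/-. In these bulk libraries fewer cells of a type and less RNA per cell cannot be told apart. Within a line, libraries departed from their mean along the GC content of genes (r over genes of at most 0.53 in size).

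In Stat5b-/- against wt, 6 of the 8 genes rose (Ifnar1, Ifnar2, Ifngr1, Jak1, Jak2 and Jak3) and Ifngr2 and Tyk2 fell, by edgeR's quasi-likelihood test at a Benjamini-Hochberg adjusted p under 0.05. Of all genes tested, 24.2% were called higher and 22% lower in this comparison, 46.2% in all, and among the 5954 genes at or above the mean level of Tyk2, the lowest of the 8, 47% were called. In Stat5a-/- against wt, Ifnar2, Ifngr1 and Jak3 rose, Ifngr2 and Jak1 fell, and Ifnar1, Jak2 and Tyk2 did not pass the test; of all genes 19.8% were called higher and 16.3% lower, 36% in all, or 37.4% at or above the level of Tyk2. In Stat5b-/- against Stat5a-/-, Ifnar1 and Jak1 were higher and Tyk2 was lower, and 5 did not pass, against 16.4% called higher and 17.5% lower of all genes, 33.9% in all, or 34.4% at or above the level of Tyk2. The median log2 fold change of the 8 genes was 0.60, 0.23 and 0.26 in these comparisons, and that of all genes tested 0.02, 0.01 and 0.02. Libraries did not overlap for 8 of the 8 genes in Stat5b-/- against wt, for 5 in Stat5a-/- against wt and for 7 in Stat5b-/- against Stat5a-/-, and over all genes tested for 54.2%, 49.2% and 44.8%. None of the 8 passed a fold change of 2 in the test as described, a limit past which 10.6% of all genes were called higher and 8.44% lower in Stat5b-/- against wt, 7.75% and 6.49% in Stat5a-/- against wt, and 4.81% and 6.6% in Stat5b-/- against Stat5a-/-. Jak3 in Stat5b-/- against wt was closest, at 1.98 times, and was past 2 (log2 above 1) without wt replicate 1 (1.08), without Stat5b-/- replicate 3 (1.14), with an offset for the GC content of genes (1.03) and with the T-cell marker share as covariate (1.52). Both comparisons with wt share the same wt libraries, so their values are given side by side.

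**Figure D1:**
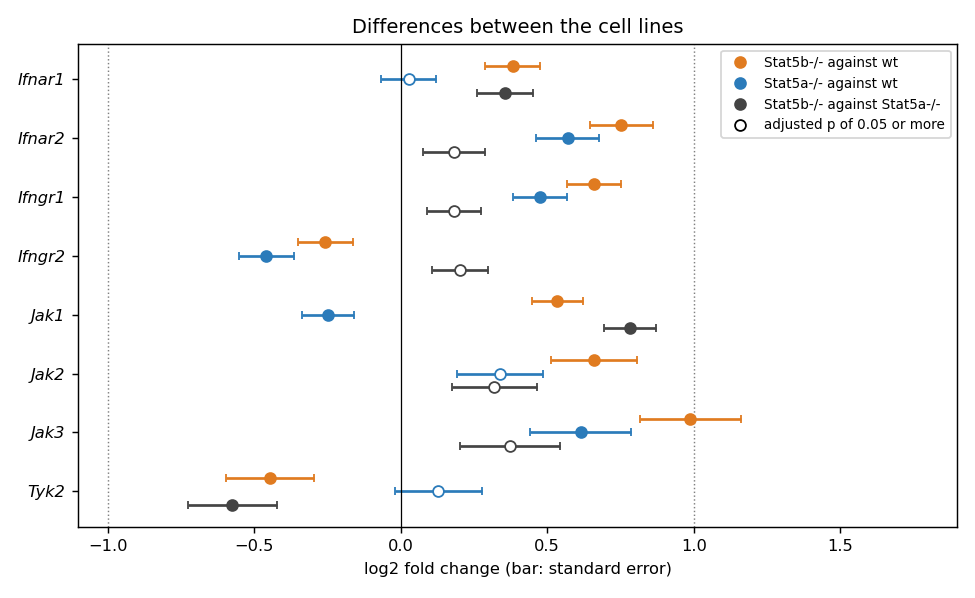
Log2 fold change (x axis, bar: standard error) of the 8 genes (y axis) in Stat5b-/- against wt, Stat5a-/- against wt and Stat5b-/- against Stat5a-/-. Filled points passed an adjusted p of 0.05 and dotted lines mark a fold change of 2; all 8 orange points are filled, 2 of them left of 0.

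Of the chains of the type I receptor, Ifnar2 rose in both knockout lines and Ifnar1 in Stat5b-/-. Ifnar2 (ENSMUSG00000022971.18), the chain that binds interferon alpha and beta with high affinity, had 35.7, 39.3 and 33.7 normalized CPM in the wt libraries, 54.6, 52.7 and 54.0 in the Stat5a-/- libraries and 67.8, 56.2 and 59.2 in the Stat5b-/- libraries. Every knockout library was above every wt library, and the knockout lines did not overlap either. It rose by a log2 fold change of 0.57 ± 0.11 (SE) in Stat5a-/- against wt (edgeR, adjusted p = 0.00091) and 0.75 ± 0.11 in Stat5b-/- against wt (adjusted p = 7.5e-05), and the knockout lines differed by 0.18 ± 0.11 (adjusted p = 0.20). With the T-cell marker share as covariate the rise in Stat5b-/- did not pass the test (0.50, adjusted p = 0.15). Of the Ifnar2 exons 315 bases, 9.46%, are shared with the readthrough model Gm21970 on the same strand, and reads that overlap more than 1 gene were not counted.

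Ifnar1 (ENSMUSG00000022967.12), the other chain, was higher in Stat5b-/- alone. Its level was 66.5, 74.5 and 69.9 normalized CPM in wt, 74.7, 68.0 and 72.3 in Stat5a-/- and 91.4, 86.8 and 97.0 in Stat5b-/-. The Stat5b-/- libraries lay above all others, while those of wt and Stat5a-/- overlapped. On the log2 scale the difference was 0.38 ± 0.09 in Stat5b-/- against wt (edgeR, adjusted p = 0.0048), 0.36 ± 0.09 against Stat5a-/- (adjusted p = 0.011) and 0.03 ± 0.09 in Stat5a-/- against wt (adjusted p = 0.85). Without Stat5a-/- replicate 2 the difference between the knockout lines was 0.31 (adjusted p = 0.058). With the T-cell marker share as covariate the difference from wt in Stat5b-/- was 0.15 (edgeR, adjusted p = 0.63) and that from Stat5a-/- 0.18 (adjusted p = 0.52).

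The chains of the type II receptor moved in opposite directions, and did so in both knockout lines. Ifngr1 (ENSMUSG00000020009.12), which binds interferon gamma, had 66.4, 66.3 and 63.6 normalized CPM in wt, 97.1, 86.7 and 89.4 in Stat5a-/- and 108.6, 103.3 and 97.9 in Stat5b-/-. No knockout library overlapped with wt. It rose by a log2 fold change of 0.48 ± 0.09 in Stat5a-/- (edgeR, adjusted p = 0.0011) and 0.66 ± 0.09 in Stat5b-/- (adjusted p = 6.8e-05).

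Ifngr2 (ENSMUSG00000022965.7), the accessory chain that brings in JAK2, had 80.3, 72.1 and 75.7 normalized CPM in wt, 56.8, 52.5 and 56.5 in Stat5a-/- and 66.2, 64.0 and 60.6 in Stat5b-/-. The wt libraries were the highest and the Stat5a-/- libraries the lowest, with no overlap between the lines. Its log2 fold change was -0.46 ± 0.09 in Stat5a-/- (edgeR, adjusted p = 0.0018) and -0.26 ± 0.09 in Stat5b-/- (adjusted p = 0.038). The size of the fall in Stat5b-/- was similar but the call was lost without wt replicate 1 (-0.22, adjusted p = 0.12), wt replicate 3 (-0.26, adjusted p = 0.093), Stat5b-/- replicate 2 (-0.26, adjusted p = 0.082) or Stat5b-/- replicate 3 (-0.22, adjusted p = 0.11), and with the replicate number as a block (-0.26, adjusted p = 0.082), and with the T-cell marker share as covariate the value was -0.11 (adjusted p = 0.75). The knockout lines differed by 0.18 ± 0.09 for Ifngr1 (adjusted p = 0.15) and 0.20 ± 0.09 for Ifngr2 (adjusted p = 0.12).

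**Figure D2:**
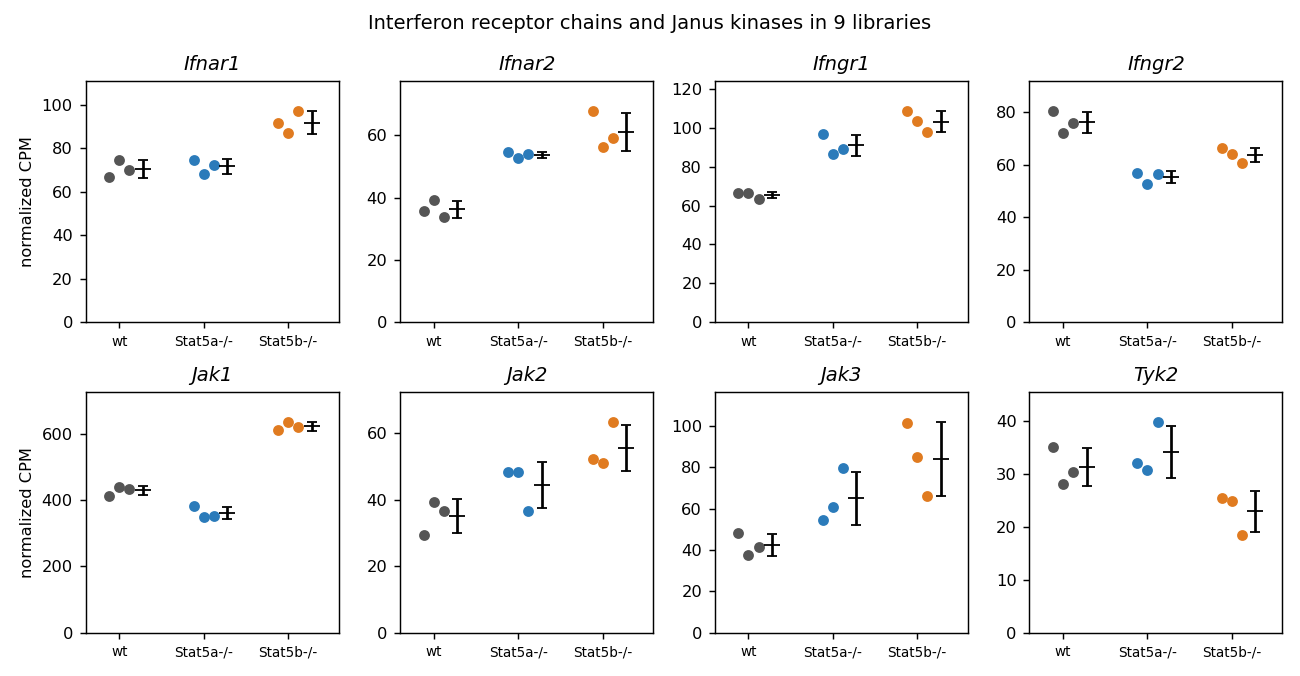
Normalized CPM (y axes, from 0) of the 8 genes in the 3 libraries of each line (x axes); each point is a library, and the black bar is the mean ± SD of a line. The Stat5b-/- libraries lie apart from the wt libraries in every panel, below them for Ifngr2 and Tyk2.

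The balance of the chains within a library does not depend on how libraries are scaled. In RPKM, normalized CPM per kilobase of exon, the ratio of Ifngr1 to Ifngr2 was 0.961, 1.07 and 0.978 in the wt libraries, 1.99, 1.92 and 1.84 in the Stat5a-/- libraries and 1.91, 1.88 and 1.88 in the Stat5b-/- libraries. The ratio was 1.91 times that of wt in Stat5a-/- and 1.88 times in Stat5b-/-, with no overlap between wt and either knockout line and overlap between the knockout lines. The ratio of Ifnar1 to Ifnar2 went the other way, from 1.10 ± 0.06 in wt to 0.754 ± 0.02 in Stat5a-/- and 0.855 ± 0.08 in Stat5b-/-, again without overlap with wt. An exact permutation test, two-sided, gave p = 0.1 for each of these 4 differences from wt, which is the smallest p that 3 libraries against 3 can give, and an adjusted p of 0.15 over the 12 comparisons of ratios that were made. With an offset for the GC content of genes the Ifngr1 to Ifngr2 ratios were 1.00 ± 0.03, 1.96 ± 0.04 and 1.85 ± 0.08 in wt, Stat5a-/- and Stat5b-/-.

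**Figure D3:**
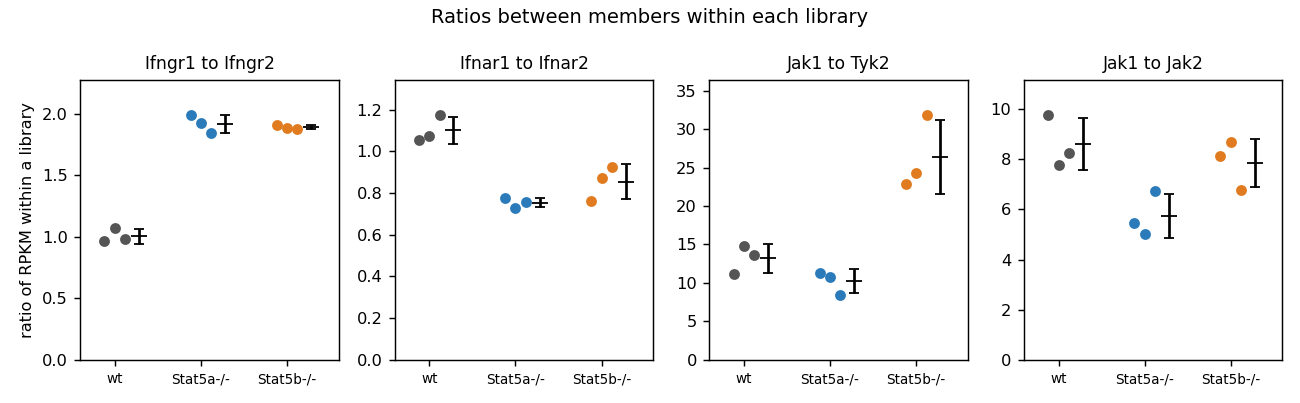
Ratio of the RPKM of 2 genes within each library (y axes, from 0) for 4 pairs of genes, by line (x axes); points are libraries and black bars the mean ± SD. The ratio of Ifngr1 to Ifngr2 lies near 1 in wt and between 1.84 and 1.99 in the knockout libraries.

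Among the kinases Jak1 was by far the most abundant per length. Its level was 59.3 ± 1.96 RPKM in wt, 50.0 ± 2.43 in Stat5a-/- and 86.0 ± 1.75 in Stat5b-/-, which was 75.3%, 65.8% and 74.1% of the sum of the 4 kinases. In wt, Jak3 (7.93 ± 0.98 RPKM) and Jak2 (6.98 ± 1.02) followed and did not differ beyond their spread, and Tyk2 was lowest (4.54 ± 0.52). In Stat5b-/- the order was Jak1, Jak3 (15.7 ± 3.33), Jak2 (11.05 ± 1.35) and Tyk2 (3.33 ± 0.56), and in Stat5a-/- Jak1, Jak3 (12.1 ± 2.42), Jak2 (8.83 ± 1.36) and Tyk2 (4.97 ± 0.72). The libraries of Jak3 and Jak2 overlapped in Stat5b-/- and did not in Stat5a-/-. The summed level of the 4 kinases was 78.8 ± 1.51 RPKM in wt, 75.9 ± 1.88 in Stat5a-/- and 116 ± 2.53 in Stat5b-/-, so that wt and Stat5a-/- overlapped and Stat5b-/- lay above both. Of the receptor chains in wt, Ifngr1 (22.98 ± 0.56 RPKM) and Ifngr2 (22.95 ± 1.24) overlapped, above Ifnar1 (11.96 ± 0.68) and Ifnar2 (10.9 ± 0.86), which overlapped too. In both knockout lines Ifngr1 was the highest chain, at 32.0 ± 1.91 RPKM in Stat5a-/- and 36.3 ± 1.88 in Stat5b-/-.

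Jak1 (ENSMUSG00000028530.14), which serves both interferon receptors, moved in opposite directions in the knockout lines. It had 412.8, 439.6 and 434.2 normalized CPM in wt, 381.4, 349.4 and 352.9 in Stat5a-/- and 610.5, 635.3 and 618.4 in Stat5b-/-. The lines did not overlap. The log2 fold change was 0.53 ± 0.09 in Stat5b-/- against wt (edgeR, adjusted p = 0.00027) and 0.78 ± 0.09 in Stat5b-/- against Stat5a-/- (adjusted p = 2.0e-05), and with the T-cell marker share as covariate the first was 0.48 (adjusted p = 0.098). The fall in Stat5a-/- was -0.25 ± 0.09 (adjusted p = 0.043), close to the threshold. Its size stayed between -0.23 and -0.31 with each library left out in turn, and the call was lost without any 1 of wt replicates 1, 2 and 3 (-0.28, -0.23 and -0.24, adjusted p = 0.055, 0.13 and 0.13), Stat5a-/- replicates 2 and 3 (-0.24 and -0.26, adjusted p = 0.11 and 0.074) or Stat5b-/- replicate 2 (-0.25, adjusted p = 0.057), and with the replicate block (-0.25, adjusted p = 0.11).

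Tyk2 (ENSMUSG00000032175.11), the kinase of IFNAR1, was the only kinase that fell in Stat5b-/-. It had 35.1, 28.1 and 30.4 normalized CPM in wt, 32.0, 30.7 and 39.8 in Stat5a-/- and 25.4, 24.8 and 18.4 in Stat5b-/-. All Stat5b-/- libraries were below those of wt and Stat5a-/-, which overlapped. The log2 fold change was -0.44 ± 0.15 in Stat5b-/- against wt (edgeR, adjusted p = 0.027), -0.57 ± 0.15 against Stat5a-/- (adjusted p = 0.011) and 0.13 ± 0.15 in Stat5a-/- against wt (adjusted p = 0.54). The fall against wt lost the call without wt replicate 1 (-0.36, adjusted p = 0.0997), wt replicate 3 (-0.47, adjusted p = 0.057) or Stat5b-/- replicate 3 (-0.31, adjusted p = 0.10). With the T-cell marker share as covariate its direction turned, to 0.16 (edgeR, adjusted p = 0.75), and the difference from Stat5a-/- was -0.12 (adjusted p = 0.81). Of the Tyk2 exons 554 bases, 8.07%, lie under the antisense gene 1700084C06Rik, and the counting used no strand, so reads there could not be assigned to either.

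The ratio of Jak1 to Tyk2 in RPKM was 11.2, 14.8 and 13.6 in wt, 11.3, 10.8 and 8.43 in Stat5a-/- and 22.9, 24.3 and 31.9 in Stat5b-/-. Every Stat5b-/- library was above all others, 1.99 times wt and 2.58 times Stat5a-/- on average, with an exact permutation p = 0.1 and an adjusted p of 0.15 for each. The ratio of Jak1 to Jak2 was 8.60 ± 1.05 in wt and 7.86 ± 0.97 in Stat5b-/-, which overlapped, and 5.75 ± 0.88 in Stat5a-/-, below both. Jak2 lies on chromosome 19, whose tested genes had a median log2 fold change of 0.41 in Stat5a-/- against wt. The part of that shift in the ratio was not tested.

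Jak3 (ENSMUSG00000031805.17), the kinase of the common gamma chain, had the largest log2 fold change of the 8 genes in each comparison with wt. It had 48.1, 37.7 and 41.5 normalized CPM in wt, 54.7, 60.9 and 79.5 in Stat5a-/- and 101.5, 84.9 and 65.9 in Stat5b-/-. All knockout libraries were above wt and the knockout lines overlapped. The log2 fold change was 0.99 ± 0.17 in Stat5b-/- (edgeR, adjusted p = 0.00041), 0.61 ± 0.17 in Stat5a-/- (adjusted p = 0.013) and 0.37 ± 0.17 between them (adjusted p = 0.11). The call in Stat5a-/- was lost without wt replicate 2 (0.53, adjusted p = 0.054) or Stat5a-/- replicate 3 (0.42, adjusted p = 0.075), and the knockout lines differed without Stat5a-/- replicate 3 (0.55, adjusted p = 0.026) or Stat5b-/- replicate 3 (0.52, adjusted p = 0.024). Of the Jak3 exons 404 bases, 7.55%, are shared with Insl3.

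Jak2 (ENSMUSG00000024789.12), the kinase of IFNGR2, had 29.4, 39.3 and 36.6 normalized CPM in wt, 48.5, 48.3 and 36.5 in Stat5a-/- and 52.3, 51.0 and 63.4 in Stat5b-/-. The Stat5b-/- libraries were the highest, and Stat5a-/- replicate 3 fell among the wt libraries. The log2 fold change was 0.66 ± 0.15 in Stat5b-/- (edgeR, adjusted p = 0.0025) and 0.34 ± 0.15 in Stat5a-/- (adjusted p = 0.091), or 0.43 without Stat5a-/- replicate 3 (adjusted p = 0.029). With the T-cell marker share as covariate the rise in Stat5b-/- was not seen (-0.05, edgeR, adjusted p = 0.93). Jak2 lies on chromosome 19, where the median log2 fold change of 471 tested genes in Stat5a-/- against wt was 0.41, with 47.6% called higher and 6.16% lower, and 0.03 in Stat5b-/- against wt. The value of Jak2 in Stat5a-/- was thus close to the median of its chromosome, and that in Stat5b-/- was above it. On chromosomes 4, 8, 9, 10 and 16, which hold the other members, the medians against wt lay between -0.06 and 0.05.

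Much of the spread of Jak2, Jak3 and Tyk2 between libraries of 1 line moved with the GC trend of the libraries. That trend is the r over genes between a library's departure from its line and GC content. Over 9 libraries, r with it was -0.98 for Jak2, 0.94 for Jak3, 0.95 for Tyk2 and -0.52 for Jak1. GC content was 44.5% in the Jak2 exons and 60.8% in the Jak3 exons. It was 54.4% in the Tyk2 exons, close to the 53.0% of Jak1. With an offset fitted to GC content in each library, a choice made after seeing the data, the coefficient of variation in wt dropped from 14.7% to 6.77% for Jak2, from 12.4% to 1.31% for Jak3 and from 11.4% to 6.73% for Tyk2, and it dropped for these 3 genes in the knockout lines as well. The offset did not narrow every gene: the coefficient went from 3.31% to 6.17% in wt, from 4.87% to 7.10% in Stat5a-/- and from 2.04% to 3.46% in Stat5b-/- for Jak1, and from 2.43% to 4.31% in wt for Ifngr1, whose coefficient also went up in both knockout lines. The 13 calls made against wt were all made with the offset as well. Jak2 was then also higher in Stat5a-/- than in wt (0.45 ± 0.09, edgeR, adjusted p = 0.00057). Between the knockout lines Jak3 (0.61 ± 0.08, adjusted p = 3.0e-05), Ifngr2 (0.25 ± 0.08, adjusted p = 0.017) and Jak2 (0.23 ± 0.09, adjusted p = 0.044) were then higher in Stat5b-/-, and with the replicate block as well the value of Jak2 was 0.23 (adjusted p = 0.086). The share of all genes called higher in this comparison was 23.8% with the offset and 20.9% with the block as well, against 16.4% without either. The ratio of Jak1 to Jak2 was 8.92 ± 0.21 in wt, 5.25 ± 0.24 in Stat5a-/- and 8.16 ± 0.42 in Stat5b-/- with the offset.

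**Figure D4:**
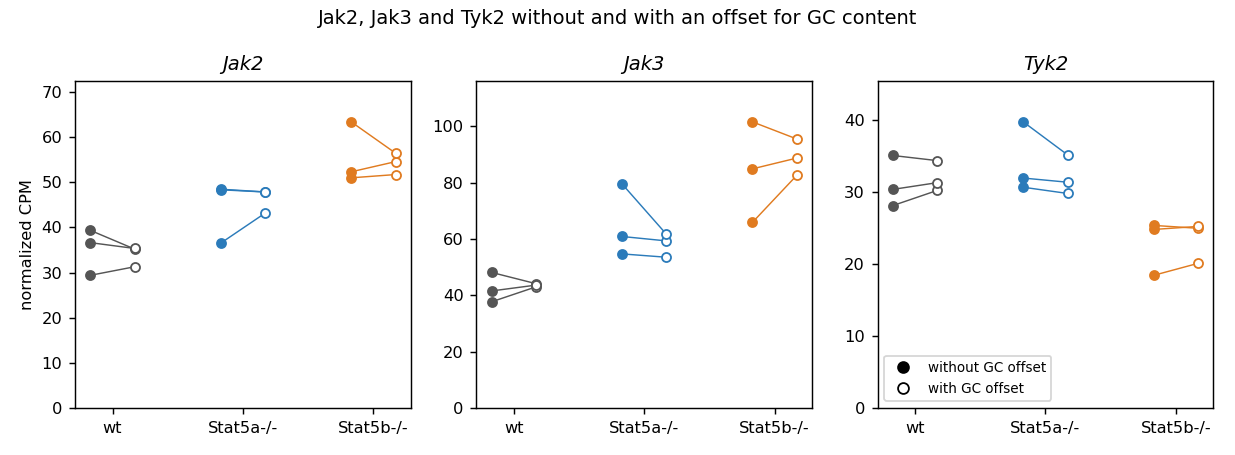
Normalized CPM (y axes, from 0) of Jak2, Jak3 and Tyk2 by line (x axes), without (filled) and with (open) the offset for GC content; each line joins the values of 1 library. The open points of a line lie closer together, and the Jak3 values of wt narrow to a coefficient of variation of 1.31%.

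The T-cell marker sum was highest in Stat5b-/-, where most of the 8 genes rose. With the log2 share of the T-cell markers as a covariate, Ifngr1 (0.64, edgeR, adjusted p = 0.045) and Jak3 (1.52, adjusted p = 0.018) remained called in Stat5b-/- against wt and the other 6 lost the call, with Jak2 and Tyk2 changing sign. Over all genes tested, the shares called in that comparison dropped as well, to 9.97% higher and 9.2% lower. The standard error of Jak1 went from 0.09 to 0.19 in that fit. The share itself did not overlap between wt and Stat5b-/-, and its part in the larger standard error was not tested. In Stat5a-/- against wt all 5 calls were made with the covariate too, and in Stat5b-/- against Stat5a-/- only that of Jak1 (0.74, adjusted p = 0.0075), where 5.44% of all genes were called higher and 7.2% lower. Within a line, Jak2 and Tyk2 followed the GC trend of the libraries (r = -0.98 and 0.95) more closely than the T-cell marker sum (0.74 and -0.61). This fit held no term for GC content, so it does not tell that trend and the marker share apart. The part of T-cell RNA in the levels of the 8 genes was not tested beyond this fit.

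Few reads were counted for the ligands. Of 21 genes for type I, II and III interferons, 17 had 0 reads in all 9 libraries and none had more than 3 reads in a library, a level at which no difference was detectable, so none was tested. The interferon alpha genes are close copies of each other, and reads that map to several of them are left out by default in this counting, so a count of 0 does not show that they were silent. Around the 8 genes, 93 further genes of the pathway were considered, the ligands among them, and 58 passed the filter. In Stat5b-/- against wt 30 of the 58 rose and 6 fell, in Stat5a-/- 23 rose and 7 fell, and in Stat5b-/- against Stat5a-/- 18 were higher and 12 lower, with medians of 0.29, 0.25 and 0.20. Over all genes tested, 24.2% were higher and 22% lower in Stat5b-/- against wt, 19.8% and 16.3% in Stat5a-/- against wt, and 16.4% and 17.5% in Stat5b-/- against Stat5a-/-, and the counts of the groups below, each of few genes, are descriptions to be read against these shares. With the T-cell marker share as covariate, the number of pathway genes called higher was 11 in Stat5b-/- against wt and 5 in Stat5b-/- against Stat5a-/-, with 9.97% and 5.44% of all genes called higher, and 24 in Stat5a-/- against wt, with 20.9%. The T-cell marker sum was itself highest in Stat5b-/-, and its part in these counts and in those of the groups below cannot be told apart from the genotype of the line.

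**Figure D5:**
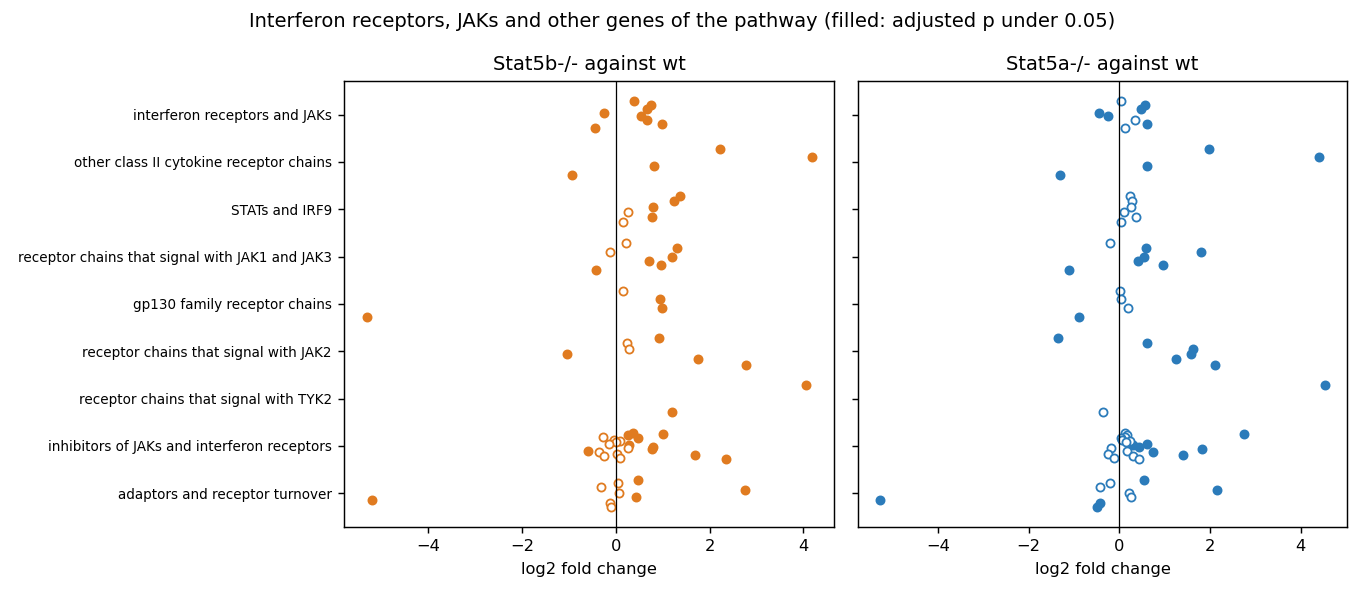
Log2 fold change (x axes) of the 8 genes and of the tested genes of 8 other groups of the pathway (y axis) in Stat5b-/- and Stat5a-/- against wt; filled points passed an adjusted p of 0.05. In the group of STATs and IRF9, 4 of 6 points are filled in Stat5b-/- and none in Stat5a-/-.

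Of the group of STATs and IRF9, Stat2 and Irf9, which act in the type I response, rose in Stat5b-/-. Irf9 had 19.3 ± 1.39 normalized CPM in wt, 22.9 ± 1.31 in Stat5a-/- and 50.4 ± 3.24 in Stat5b-/-, and Stat2 had 27.2 ± 3.19, 32.4 ± 2.69 and 47.0 ± 4.49. The log2 fold changes against wt were 1.38 and 0.79 in Stat5b-/- (edgeR, adjusted p under 0.05 for each) and 0.24 and 0.25 in Stat5a-/-, where none of the group of 6 was called. Stat5b-/- was above Stat5a-/- by 1.14 for Irf9 and 0.54 for Stat2, each past the test. Of 20 inhibitors, 9 rose and 1 fell in Stat5b-/- (24.2% and 22% of all genes) and 7 rose in Stat5a-/- (19.8% of all genes), with medians of 0.17 and 0.20. Usp18, which binds IFNAR2 and damps the type I signal, had 3.20 ± 0.25, 4.33 ± 0.55 and 16.4 ± 1.72 normalized CPM in wt, Stat5a-/- and Stat5b-/-, a log2 fold change of 2.35 in Stat5b-/-, and was higher there than in Stat5a-/- by 1.91. Cish and Socs1, which are induced by STATs and inhibit cytokine signals, were highest in Stat5a-/-, at 99.3 ± 17.2 and 55.5 ± 13.7 normalized CPM, against 29.5 ± 10.3 and 26.5 ± 4.95 in Stat5b-/- and 14.8 ± 1.82 and 15.6 ± 3.47 in wt.

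Of the other receptor chains of the interferon and IL-10 family, 4 of 7 passed the filter, and 3 rose and 1 fell in both knockout lines. Il10ra, the ligand-binding chain of the IL-10 receptor, had 1.55 ± 0.49 normalized CPM in wt, 33.8 ± 4.75 in Stat5a-/- and 28.8 ± 1.62 in Stat5b-/-. Ifnlr1, the specific chain of the type III interferon receptor, had 1.22 ± 0.18, 4.86 ± 1.124 and 5.72 ± 0.14, from 16 to 85 reads in a library. Il10rb, the chain that the IL-10 and type III receptors share, rose by a log2 fold change of 0.61 in Stat5a-/- and 0.81 in Stat5b-/-, and Il20rb was lower in both, by -1.30 and -0.92, at 5 to 31 reads.

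Of the receptor chains that signal with JAK1 and JAK3, 4 of the 7 tested rose and 1 fell in Stat5b-/- (24.2% and 22% of all genes), and 5 rose and 1 fell in Stat5a-/- (19.8% and 16.3%), with medians of 0.70 and 0.55. Il21r, the IL-21 receptor, and Il2rb, the IL-2 receptor beta chain, rose in both, with log2 fold changes of 1.31 and 1.20 in Stat5b-/- and 0.58 and 0.55 in Stat5a-/-. Il2ra, the alpha chain, rose in Stat5a-/- (1.81) and stood at 13.9 ± 1.30 normalized CPM in wt and 12.8 ± 1.49 in Stat5b-/-. Of the gp130 family, 2 of 4 rose and 1 fell in Stat5b-/-: Il6st, gp130 itself, and Il6ra had log2 fold changes of 0.99 and 0.94 there against 0.20 and 0.05 in Stat5a-/-, and Lifr was at 22.0 ± 2.44 normalized CPM in wt, 11.8 ± 0.92 in Stat5a-/- and 0.561 ± 0.47 in Stat5b-/-. In Stat5a-/- Lifr was the 1 called of the 4.

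Of the chains that signal with JAK2, 6 were tested, of which 3 rose and 1 fell in Stat5b-/- (24.2% and 22% of all genes) and 5 rose and 1 fell in Stat5a-/- (19.8% and 16.3%), with medians of 0.61 and 1.42. Il3ra rose in both lines (1.26 in Stat5a-/- and 1.76 in Stat5b-/-), as did Il5ra (2.11 and 2.78) from 0.235 ± 0.15 normalized CPM in wt. Csf2rb, the common beta chain, had 73.3 ± 7.48 normalized CPM in wt, 225 ± 31.1 in Stat5a-/- and 89.7 ± 16.97 in Stat5b-/-, and shares sequence with its copy Csf2rb2, so the split of reads between them is uncertain. Of the 2 tested chains that signal with TYK2, Il12rb1, a chain of the IL-12 and IL-23 receptors, had 0.643 ± 0.10 normalized CPM in wt, 15.2 ± 4.05 in Stat5a-/- and 10.8 ± 1.59 in Stat5b-/-, and Il13ra1 rose in Stat5b-/- (1.20) at 4 to 26 reads. Of 9 adaptors and genes of receptor turnover, 3 rose and 1 fell in Stat5b-/- and 2 rose and 3 fell in Stat5a-/-, near the shares of all genes for those that rose (24.2% and 19.8%), with medians of 0.05 and -0.21. Prkd2 and Btrc, both of which act in the removal of IFNAR1 from the cell surface, rose in both lines, Prkd2 from 60.5 ± 4.71 normalized CPM in wt to 271 ± 45.5 in Stat5a-/- and 409 ± 86.7 in Stat5b-/-, and Btrc from 19.8 ± 1.52 to 29.0 ± 0.98 and 27.6 ± 0.90. Sh2b2, an adaptor of JAK2, had 81 to 105 reads in a wt library and 1 to 3 in a knockout library.

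The genes beside the 8 members did not all move with them. In the cluster on chromosome 16, Il10rb, between Ifnar2 and Ifnar1, rose in both knockout lines, as did Tmem50b, the next tested gene after Ifngr2 (0.33 in Stat5a-/- and 0.41 in Stat5b-/-), while Ifngr2 itself fell. Paxbp1, before Ifnar2, was not called (-0.13 and 0.16). Beside Tyk2, Cdc37, a chaperone of kinases, was lower in Stat5b-/- (-0.47). Beside Jak1, Raver2 rose in Stat5b-/- (1.25), and Ak4 had a log2 fold change of -3.55 in Stat5a-/- and -5.04 in Stat5b-/-. Beside Jak2, Rcl1 was lower in Stat5b-/- (-0.53), and Insl6 was not called against wt (0.32 in Stat5b-/- and -0.23 in Stat5a-/-). Beside Jak3, Unc13a was lower and B3gnt3 higher in both knockout lines, whereas Ifngr1 stood between genes that were not called, Gm33104 and Pex7.

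The 9 libraries come from 3 lines, so a likeness over them holds differences between lines as well as within them, and it is given as a description. Among 8529 genes, those most like each member over the 9 libraries by Pearson's r of log2 CPM were Mgat4a, Parp9 and Skil for Ifnar1, Smad7, Dgka and Fam78a for Ifnar2, Dcaf11, Sh3bp5 and Parp11 for Ifngr1, and Pip4p2, Hlx and Itm2c for Ifngr2. For the kinases they were Dock2, Zbtb38 and Mta3 for Jak1, 1300002E11Rik, Msl2 and Arid4a for Jak2, Jade2, Paxx and Vasp for Jak3, and Zbtb7b, Lamp1 and Por for Tyk2. The coefficients lay between 0.98 and 1.00. The log2 CPM carried no GC offset here. Within a line Jak2, Jak3 and Tyk2 followed the GC trend of the libraries (r = -0.98, 0.94 and 0.95), and its part in their lists was not tested.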

How the data were processed

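The libraries were made from polyA RNA with the SENSE mRNA-Seq kit and sequenced as 50 bp single-end reads. The authors trimmed the reads with Trimmomatic, mapped them with STAR at default settings to the mouse genome (GRCm38, GENCODE M13) and deposited, per the file headers, read counts per gene from featureCounts 1.5.1 over the exons of each gene, without a strand setting and without normalization. By default this counter leaves out reads that map to several places or overlap several genes. Gene symbols were looked up in a table of GENCODE M21 (50376 of 50686 genes found).

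In R 4.3.3, edgeR 4.0.16 was used to scale the counts (TMM), filter them (filterByExpr) and fit and test them by quasi-likelihood (glmQLFTest, 13852 genes, all 9 libraries, Benjamini-Hochberg adjustment over all genes). A gene was called at an adjusted p under 0.05. The standard error is the size of the log2 fold change divided by the root of the F statistic. RPKM is normalized CPM per kilobase of merged exons. Intervals and p-values cover the spread between technical replicates, and no molecular identifiers were used, so reads may repeat a molecule. Counts of replicates differed beyond sampling noise (chi-square per degree of freedom from 4.89 to 30.5). The steps were tested on simulated counts.

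The members, the lists and the tests were chosen with earlier results of these data known. Named were all members, up to 3 genes of each other pathway list with the largest change against wt, the genes between or beside the members, and the 3 genes most like each member. Il10rb was named as a neighbour. Alternatives were RLE normalization, DESeq2 1.42.0, no filter or a mean of at least 10 counts, the 2 genotypes alone, a fold change above 2, an adjusted p under 0.1, the replicate block, the T-cell marker share as covariate and leaving out each library; the GC offset (loess, span 0.5), alone and with the block, was added after seeing the data. Human samples were not analysed here, and some genes of the lists are not reported here.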

Additional observations from a re-analysis of the deposited data

How the results depend on the processing

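Over 20 alternatives the 24 differences of the 8 genes gave 480 values, of which 417 kept their direction and side of the threshold, 42 lost the call, 12 gained it and 9 turned sign. With a fold change above 2 required and all else as described, 0 of the 8 genes were called higher or lower in any comparison, and of the pathway genes 13 were higher and 3 lower in Stat5b-/- against wt, 12 and 4 in Stat5a-/- against wt, and 4 and 7 in Stat5b-/- against Stat5a-/-. Without a filter on low counts, 1 of the 8 genes was lower in each comparison with wt. Of the 27545 genes then tested, 12.4% were lower in Stat5b-/- and 9.49% in Stat5a-/- against wt. With the T-cell marker share as covariate, 2 of the 8 genes were higher and 0 lower in Stat5b-/- against wt, with 11 pathway genes higher and 9.97% of all genes higher and 9.2% lower, and 1 was higher and 0 lower in Stat5b-/- against Stat5a-/-, with 5 pathway genes higher and 5.44% and 7.2% of all genes higher and lower. The sign turned with this covariate for Jak2 (-0.045) and Tyk2 (0.16) in Stat5b-/- against wt, Ifnar1 (-0.027) in Stat5a-/- against wt, and Ifnar2 (-0.0083) and Jak2 (-0.21) in Stat5b-/- against Stat5a-/-. With the GC offset 5 of the 8 genes were higher in Stat5b-/- than in Stat5a-/-, and 4 with the replicate block as well, while the share of all genes called higher went from 16.4% to 23.8% and 20.9%.

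With each library left out in turn, the number of the 8 genes called lower lay between 0 and 2 in Stat5b-/- against wt and between 1 and 2 in Stat5a-/- against wt, and the number called higher between 1 and 3 in Stat5b-/- against Stat5a-/-. Of all genes tested, from 18% to 24.1% were then lower in Stat5b-/- and from 12.4% to 18.4% in Stat5a-/- against wt. The share higher in Stat5b-/- against Stat5a-/- ran from 11.6% to 16.3%. In Stat5a-/- against wt, the log2 fold change of Ifnar1 then ran from -0.023 to 0.069, below 0 without wt replicate 1, Stat5a-/- replicate 1 or Stat5a-/- replicate 3, and that of Tyk2 from -0.022 to 0.22, below 0 without Stat5a-/- replicate 3. The cause was not tested.

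With the replicate number as a block, 1 of the 8 genes was called lower in each comparison with wt, since Ifngr2 in Stat5b-/- and Jak1 in Stat5a-/- lost the call, and no other call of the 8 genes changed. Of all genes tested, 19.8% were then called lower in Stat5b-/- and 13.7% in Stat5a-/- against wt. The numbers showed no pairing of the libraries in a check of deviations from the mean of a line. The correlation of these deviations was -0.09 on average over 9 pairs with the same number (from -0.45 to 0.22). It was 0.04 over 18 pairs with different numbers. The deviations also ran along GC content (r over genes of at most 0.53 in size), and pairing hidden by that trend could not be seen. No scaling moved the median of all genes by more than 0.1. Depth limits the ligands and the genes with few reads.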
